A study of Mus musculus with 18 samples.

Results

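The step from hematopoietic stem cells (HSC) to pre-megakaryocyte-erythroid progenitors (preMegE) was followed in mouse bone marrow cells that lack Ptbp1. It is the comparison of the 3 libraries labelled preMegE KO with the 3 labelled HSC KO, chosen by their labels, and these are 6 of the 18 libraries of the series. It covers the 20443 autosomal genes that passed a filter on low counts, of 49643 autosomal genes and 53458 genes in all. The series is RNA sequencing of bone marrow populations of C57BL/6 mice, isolated by FACS, with 3 libraries for each population and genotype that the submitters call biological replicates. The genotypes are Ptbp1 fl/fl, which carries floxed alleles and is called WT here, and Ptbp1 -/-, called KO. HSC were gated as CD150+ CD48- cells among Lin- Sca-1+ c-kit+ marrow cells, and preMegE as Lin- Sca-1- c-kit+ CD150+ cells negative for CD41, CD105 and FcgRII/III. The 3 HSC WT and 3 preMegE WT libraries give the same step with Ptbp1 present, and share no library with the KO step. The sources used here do not give the Cre driver behind the deletion, the age of the mice or any pooling of animals.

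PTBP1 is an RNA-binding protein that attaches to pyrimidine-rich stretches of RNA and mostly represses the use of nearby exons. Its close relatives PTBP2 and PTBP3 bind similar sequences, and PTBP1 is known to hold back PTBP2 by making the cell skip an exon that the PTBP2 message needs. HSC divide rarely and renew the blood system for life, whereas preMegE are dividing progenitors that give rise to red cells and platelets. The master regulators of that branch are the GATA factors and their partners, above all KLF1 on the red cell side, and leaving the stem cell state is known to go with more cell division and more protein synthesis.

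Levels are CPM, reads of a gene scaled to a common library size, on library sizes adjusted by trimmed means (TMM), and changes are log2 ratios of preMegE over HSC, so that 1 is a 2-fold higher level in preMegE. Each change is given ± its SE from the fit, with 3 libraries a group. A gene is called, and said to rise or fall, where edgeR's quasi-likelihood test gave an adjusted p below 0.05. The 6 KO libraries held 16412057 to 22919390 estimated reads. More genes had at least 10 reads in HSC KO (19513 to 20965) than in preMegE KO (15026 to 16714), and mitochondrial ribosomal RNA took 24.0 to 33.5% and 17.8 to 25.8% of reads. HSC KO libraries varied most among themselves, with a biological coefficient of variation of 0.548 against 0.337 in preMegE KO, 0.443 in HSC WT and 0.186 in preMegE WT. HSC KO replicate 2 stood apart on the second and preMegE KO replicate 1 on the third principal component, and results that change without either are given with both values. Xist, which coats the X chromosome that female cells silence, stood at 7339 to 9866 CPM in all 6 HSC libraries of both genotypes and at no more than 1.29 CPM in the 6 preMegE libraries, so that sex and population cannot be told apart in the KO or in the WT step. For this reason only autosomal genes are reported. In bulk RNA, fewer cells of a type and less RNA per cell cannot be told apart either.

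The targeted gene was checked first. Ptbp1 (chr10:79854427-79864771, GRCm38) stood at 103, 123 and 109 CPM in HSC KO and 222, 214 and 269 CPM in preMegE KO, and at 252, 237 and 222 CPM in HSC WT and 690.3, 814 and 905 CPM in preMegE WT. Every KO library of a population was below every WT library of it, yet the gene total was far from 0. Protein-coding Ptbp1 transcripts, in TPM, a unit scaled for transcript length and depth, were at 8.13, 2.604 and 3.71 in HSC KO and 14.99, 11.8 and 4.79 in preMegE KO, against 54.02, 65.3 and 58.4 in HSC WT and 71.5, 128 and 123 in preMegE WT. Most of what was left in KO libraries was assigned to retained-intron transcripts, with 71.8, 84.8 and 80.9 TPM in HSC KO and 61.7, 80.99 and 90.2 TPM in preMegE KO. The Ptbp1 total rose in the KO step by 1.07 ± 0.14 on the log2 scale (adjusted p = 1.86e-05), with no overlap between the populations, and the WT change was 1.76. The difference of the 2 changes was -0.69 (95% interval -1.10 to -0.28), adjusted p = 0.683, which did not pass.

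The paralogs changed as follows. Ptbp3 stood at 369, 418 and 560.0 CPM in HSC KO and 1118, 1360.3 and 1225 CPM in preMegE KO, and rose by 1.46 ± 0.14 (adjusted p = 1.32e-06), with a WT change of 1.44. Ptbp2, the member best known from neurons, stood at 106, 143 and 145 CPM in HSC KO and 87.8, 102 and 97.4 CPM in preMegE KO, against 50.4, 69.3 and 71.3 CPM in HSC WT and 22.01, 22.04 and 17.7 CPM in preMegE WT. The 3 preMegE KO libraries lay just below the 3 HSC KO libraries, and each KO library lay above every WT library of its population. Its KO change of -0.45 ± 0.17 was called at adjusted p = 0.0413, but the call was lost by DESeq2, with size factors of DESeq2's kind, with length-scaled counts, with a replicate block, without both outlying libraries, and when any of 5 single libraries was left out. The WT change was -1.63, and the difference of the steps was 1.17 (95% interval 0.64 to 1.70). That difference had adjusted p = 0.364 by edgeR and was called by DESeq2 (1.16, adjusted p = 0.0270).

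Promoters are shown for 2 genes that rose and hold a GATA motif, 1 that rose and holds none, and 1 that fell. Each run is the 250 bases before the annotated start, from RefSeq (GRCm38.p6), written 5′ to 3′ on the gene's strand. Capitals mark GATA motifs (AGATAA or TGATAA on either strand, printed as TTATCT or TTATCA when on the other strand) and the KLF motif CACACCC.
Klf1 (chr8:84901732-84901981, plus strand): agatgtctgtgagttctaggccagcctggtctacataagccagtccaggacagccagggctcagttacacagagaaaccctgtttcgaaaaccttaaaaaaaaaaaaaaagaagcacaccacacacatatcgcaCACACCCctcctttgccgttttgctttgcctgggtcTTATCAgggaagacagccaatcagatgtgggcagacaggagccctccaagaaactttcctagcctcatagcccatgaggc
Gfi1b (chr2:28621983-28622232, minus strand): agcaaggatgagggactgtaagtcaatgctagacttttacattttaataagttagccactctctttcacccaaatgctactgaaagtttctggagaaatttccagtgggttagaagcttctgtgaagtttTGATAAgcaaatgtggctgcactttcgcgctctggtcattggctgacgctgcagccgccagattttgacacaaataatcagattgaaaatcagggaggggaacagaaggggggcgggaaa
Aqp1 (chr6:55336049-55336298, plus strand): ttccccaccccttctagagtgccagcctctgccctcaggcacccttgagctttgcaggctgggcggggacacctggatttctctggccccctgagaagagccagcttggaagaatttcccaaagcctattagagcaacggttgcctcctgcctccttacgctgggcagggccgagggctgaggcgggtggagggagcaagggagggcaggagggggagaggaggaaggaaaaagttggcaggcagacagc
Hlf (chr11:90390918-90391167, minus strand): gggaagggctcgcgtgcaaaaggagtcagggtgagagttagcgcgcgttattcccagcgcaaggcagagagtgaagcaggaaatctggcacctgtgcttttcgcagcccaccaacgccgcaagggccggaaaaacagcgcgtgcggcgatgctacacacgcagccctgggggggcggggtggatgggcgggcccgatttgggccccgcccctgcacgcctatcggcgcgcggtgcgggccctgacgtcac
Promoters of 11 genes were looked at singly, chosen with their values known, and are too few for a comparison. Of those that rose in the KO step, Klf1, Gfi1b, Epor and Ermap each hold 1 GATA motif, while Aqp1, Zfpm1 and Txnip hold none. Of those that fell, Hlf, Selp, Meis1 and Ptbp2 hold no GATA motif. The KLF motif was found once in Klf1, which rose, and once in Meis1, which fell. Among 4781 promoters of genes called higher in the KO step, 8.83% held a GATA motif, against 10.7% of all 13861 promoters of tested genes. The share with the KLF motif was 7.20% for the higher genes and 7.06% for all. The ETS motif CCGGAAG was in 16.7% of promoters of the higher genes and in 12.2% of all, and the TATA box TATAAA in 5.63% and 7.92%. The median number of CG pairs was 17 in promoters of the higher genes and 14 in all promoters counted. The same shares are void for the lower genes and for those at least 4-fold higher, because 77.4% and 78.2% of them had a promoter in the table, under the 80% required. A match of letters is a description and shows no binding.

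In the KO step 4846 genes rose, or 23.7% of those tested, and 5037 fell, or 24.6%. For 11217 genes (54.9%) the 3 HSC KO and the 3 preMegE KO values did not overlap. The median change over all genes was -0.33 in the KO step and -0.39 in the WT step. Without scaling factors the median of all KO changes was -0.76, a shift of -0.43, and with upper-quartile factors -0.74, a shift of -0.42. With these, 25.8% and 28.0% of the calls were higher, against 49.0% with TMM, so list medians are given beside the median of all genes. Among well-expressed protein-coding genes the 12 largest falls were, in that order, in Rpl10-ps3, Selp, Syne2, Mecom, Gabbr1, Nbea, Hlf, Fmnl2, Samd12, Tgm2, H2-Aa and Mmrn1. Rpl10-ps3 bears the name of a pseudogene, although the annotation lists it as protein-coding. The 12 largest rises were in Car1, Gm10800, Atp1b2, St8sia6, Scin, Il1rl1, Klf1, Parm1, Itgal, Cd48, Nkg7 and Aqp1. Of these Car1 encodes a carbonic anhydrase of red cells, Aqp1 a water channel, Il1rl1 the receptor for interleukin 33, Scin an actin-severing protein and Itgal an integrin chain of leukocytes. Fitted changes ran from -14.06 to 10.05, and that of Rpl10-ps3 depends on the fit because preMegE KO had 0 reads.

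**Figure D1:**
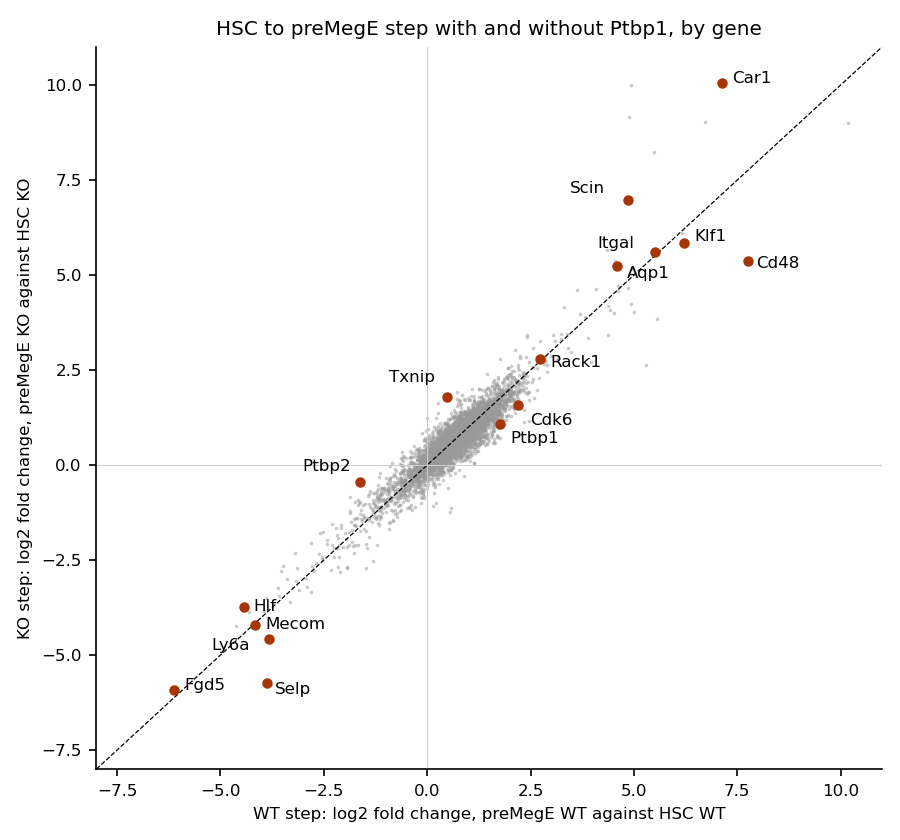
Change of each well-expressed autosomal gene (mean log2 CPM of at least 5 in the 6 KO libraries) from HSC to preMegE, with the WT log2 change on the x axis and the KO log2 change on the y axis. Each point is 1 gene, and the dashed line marks equal changes. Labelled genes are drawn whatever their level, and Fgd5 and Ly6a are under the stated one. Of the labelled genes Mecom, Fgd5, Rack1 and Klf1 lie near the line, while Txnip, Ptbp2, Selp and Car1 lie farther off.

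Most transcription factors of the stem cell state fell in KO cells. Of the 32 tested, 2 rose and 23 fell, against 24.6% of all genes that fell, and the list's median change was -1.59. Hlf, a leucine zipper factor that marks HSC, stood at 643, 594 and 460.2 CPM in HSC KO and 34.8, 48.03 and 44.8 CPM in preMegE KO. All 3 preMegE KO libraries were far below the lowest HSC KO library, and the change was -3.73 ± 0.16, adjusted p = 1.15e-09. Mecom, which encodes EVI1, a factor that HSC need for self-renewal, stood at 188, 217 and 150.5 CPM in HSC KO and 8.87, 11.8 and 9.36 CPM in preMegE KO, again with a wide gap, and fell by 4.21 ± 0.20 (adjusted p = 1.38e-09). Hoxb3 changed by -3.75 ± 0.33, Erg by -1.42 ± 0.14 and Meis1, a HOX cofactor, by -0.80 ± 0.12, so that Meis1 kept a level of 189, 170.4 and 183 CPM in preMegE KO. Hoxb8 had no read in preMegE KO and was at least 13.7-fold higher in HSC KO, on a floor of 3 reads per library. Called higher against the list were Gata2, at 209, 239 and 176 CPM in HSC KO and 637, 493 and 732 CPM in preMegE KO (1.58 ± 0.16, adjusted p = 2.24e-06), and Bmi1, a Polycomb protein (0.61 ± 0.20, adjusted p = 0.0215). Runx1 (0.15), Etv6 (0.33) and Tal1 (0.49) did not pass the test, and the HSC KO and preMegE KO values of each overlapped. Etv6 passed without HSC KO replicate 3 or preMegE KO replicate 1.

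Most surface and signaling genes of HSC also fell. Of the 44 tested, 8 rose and 28 fell, against 23.7% and 24.6% of all genes, with a median of -1.41. The list's summed level overlapped between the populations all the same, at 4219.6 to 4492 CPM in HSC KO and 3829 to 4489 CPM in preMegE KO. Fgd5, an exchange factor gene used to mark HSC, stood at 52.9, 56.8 and 26.7 CPM in HSC KO and 0.578, 0.822 and 0.814 CPM in preMegE KO, a change of -5.93 ± 0.40. Selp, the adhesion receptor P-selectin, stood at 56.9, 79.7 and 69.1 CPM in HSC KO and 1.99, 0.373 and 1.42 CPM in preMegE KO and changed by -5.72 ± 0.39 (adjusted p = 3.42e-08). Procr, the protein C receptor, changed by -7.08 ± 0.62, from 36.7, 14.6 and 9.26 CPM to 0.0643, 0.149 and 0.204 CPM. The 8 members that rose included Tek, the angiopoietin receptor TIE2 (0.86 ± 0.19), the chemokine receptor Cxcr4 (0.96 ± 0.22), the tetraspanin Cd81 (1.07 ± 0.14) and the redox regulator Txnip. Txnip stood at 176, 174 and 154 CPM in HSC KO and 451, 574 and 714 CPM in preMegE KO, so that each preMegE KO library lay above each HSC KO library, and rose by 1.79 ± 0.17.

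The genes behind the sort describe the gates and are no finding. Ly6a, which encodes Sca-1, stood at 52.9, 26.5 and 32.1 CPM in HSC KO and 1.29, 1.49 and 1.88 CPM in preMegE KO. Cd48 stood at 3.06, 0.954 and 1.45 CPM in HSC KO and 68.7, 86.6 and 77.1 CPM in preMegE KO, and Slamf1, which encodes CD150, at 87.1, 88.2 and 68.7 CPM in HSC KO and 41.8, 42.1 and 44.1 CPM in preMegE KO. Kit stood at 626, 572 and 568 CPM in HSC KO and 859.9, 972 and 1024 CPM in preMegE KO, and its direction turned with length-scaled counts (-0.28). Itga2b, which encodes CD41, stood at 27.1, 24.9 and 64.7 CPM in HSC KO and 58.3, 42.9 and 76.3 CPM in preMegE KO, with overlap, although the preMegE gate takes CD41- cells and the HSC gate does not name CD41. Eng, which encodes CD105, stood at 73.9, 57.7 and 74.9 CPM in HSC KO and 138, 99.2 and 154 CPM in preMegE KO, and its change of 0.92 turned to -0.0681 with length-scaled counts.

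Most regulators of the red cell and platelet branch rose. Of the 35 tested, 22 rose and 2 fell, against 23.7% and 24.6% of all genes. The median was 0.96 against -0.33 for all genes. Klf1, the erythroid Kruppel-like factor, stood at 1.09, 0.803 and 1.602 CPM in HSC KO and 64.3, 49.2 and 87.8 CPM in preMegE KO, a change of 5.84 ± 0.39, adjusted p = 3.04e-08, and the lowest preMegE KO library was far above the highest HSC KO library. Gfi1b, a repressor that both red cells and megakaryocytes need, stood at 13.5, 11.7 and 25.8 CPM in HSC KO and 143, 107 and 165 CPM in preMegE KO (3.03 ± 0.32, adjusted p = 2.83e-06). Zfpm1, which encodes the GATA1 partner FOG1, stood at 44.7, 46.6 and 59.5 CPM in HSC KO and 141, 112 and 187 CPM in preMegE KO (1.54 ± 0.21), and Myb at 309, 420.3 and 386 CPM in HSC KO and 1331, 1445 and 1617 CPM in preMegE KO (1.98 ± 0.14, adjusted p = 4.49e-08). Mafk (2.62 ± 0.23) and Nfe2 (1.31 ± 0.17), subunits of the NF-E2 dimer, also rose, as did Ikzf1 (1.93 ± 0.16) and Foxo3 (1.61 ± 0.13). Gata3 (-2.22 ± 0.35) and Lyl1 (-0.59 ± 0.22) fell. Tal1 (0.49), Lmo2 (-0.09) and Fli1 (-0.11) did not pass, and their libraries overlapped. Gata1 lies on the X chromosome and is left out of the counts.

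Most red cell genes rose as well. Of the 46 tested, 32 rose and 6 fell, against 23.7% and 24.6% of all genes, with a median of 1.88. Car1, the carbonic anhydrase of red cells, stood at 1.53, 1.41 and 0.300 CPM in HSC KO and 1106, 1119.6 and 1279.8 CPM in preMegE KO (10.05 ± 1.06, adjusted p = 8.05e-05), and its counts per library in HSC KO were 38, 28 and 6 reads. The water channel gene Aqp1 stood at 4.39, 4.42 and 9.01 CPM in HSC KO and 237, 189.7 and 239 CPM in preMegE KO (5.23 ± 0.26, adjusted p = 1.74e-09). Epor, the erythropoietin receptor, stood at 5.32, 0.201 and 6.61 CPM in HSC KO and 37.01, 16.1 and 23.2 CPM in preMegE KO, and rose by 2.65 ± 0.66 (adjusted p = 0.00493), with HSC KO replicate 2 far below the other HSC KO libraries. Add2, the beta adducin of the membrane skeleton, was at 0 reads in all HSC KO libraries and at least 46.3-fold higher in preMegE KO. The 6 members that fell include globins and other products of late red cells, and were Cd36 (-3.94), Hba-a1 (-3.09), Hbb-bs (-2.07), Hbb-bt (-1.55), Epb42 (-1.54) and Rhbdl2 (-2.52). Hbb-bs, a beta globin gene, stood at 15.04, 3.21 and 3.904 CPM in HSC KO and 1.35, 0.523 and 3.31 CPM in preMegE KO, low in every library and with overlap. Slc4a1 (band 3, -1.34), Sptb (beta spectrin, -0.51) and Tfrc (transferrin receptor, 0.54) did not pass.

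So did most genes of heme synthesis and iron. Of the 35 tested, 24 rose and 2 fell, against 23.7% and 24.6% of all genes, with a median of 1.08. Steap3, the ferrireductase of the endosome, stood at 3.39, 9.79 and 5.16 CPM in HSC KO and 97.5, 98.7 and 111 CPM in preMegE KO (4.08 ± 0.35, adjusted p = 3.37e-07). Glrx5, a glutaredoxin of iron-sulfur cluster assembly, changed by 3.11 ± 0.32, and the heme pathway enzymes Alad by 2.67 ± 0.31, Urod by 1.65 ± 0.27 and Alas1 by 1.31 ± 0.31. The iron exporter gene Slc40a1 changed by 2.50 ± 0.53, and the ferritin chains Ftl1 and Fth1 by 1.48 and 1.35. Ppox (-1.48 ± 0.34), which acts late in the same pathway, and the transporter Abcg2 (-0.76 ± 0.15) fell, and Fech (0.55, adjusted p = 0.0614), the last enzyme, did not pass.

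Megakaryocyte genes split. Of the 40 tested, 11 rose and 13 fell, against 23.7% and 24.6% of all genes, and the median was 0.15, which became -0.27 without scaling factors and with upper-quartile factors. F2r, the thrombin receptor PAR1, stood at 95.2, 111 and 164 CPM in HSC KO and 748, 802 and 906 CPM in preMegE KO (2.73 ± 0.17, adjusted p = 2.14e-08), and the platelet glycoprotein gene Gp5 changed by 2.21 ± 0.41 and Dapp1, a signaling adaptor, by 1.26 ± 0.14. Vwf, the von Willebrand factor, stood at 147, 124 and 159.6 CPM in HSC KO and 28.2, 13.7 and 19.5 CPM in preMegE KO (-2.81 ± 0.23, adjusted p = 1.89e-07), and every preMegE KO library was below every HSC KO library. Pf4, platelet factor 4, changed by -2.36 ± 0.68 with overlapping libraries, and the integrin gene Itgb3 by -2.18 ± 0.36. Mmrn1 and Selp, which HSC share with megakaryocytes, are among the members that fell. Gp1bb (-1.19) and Gp9 (0.56) did not pass.

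**Figure D2:**
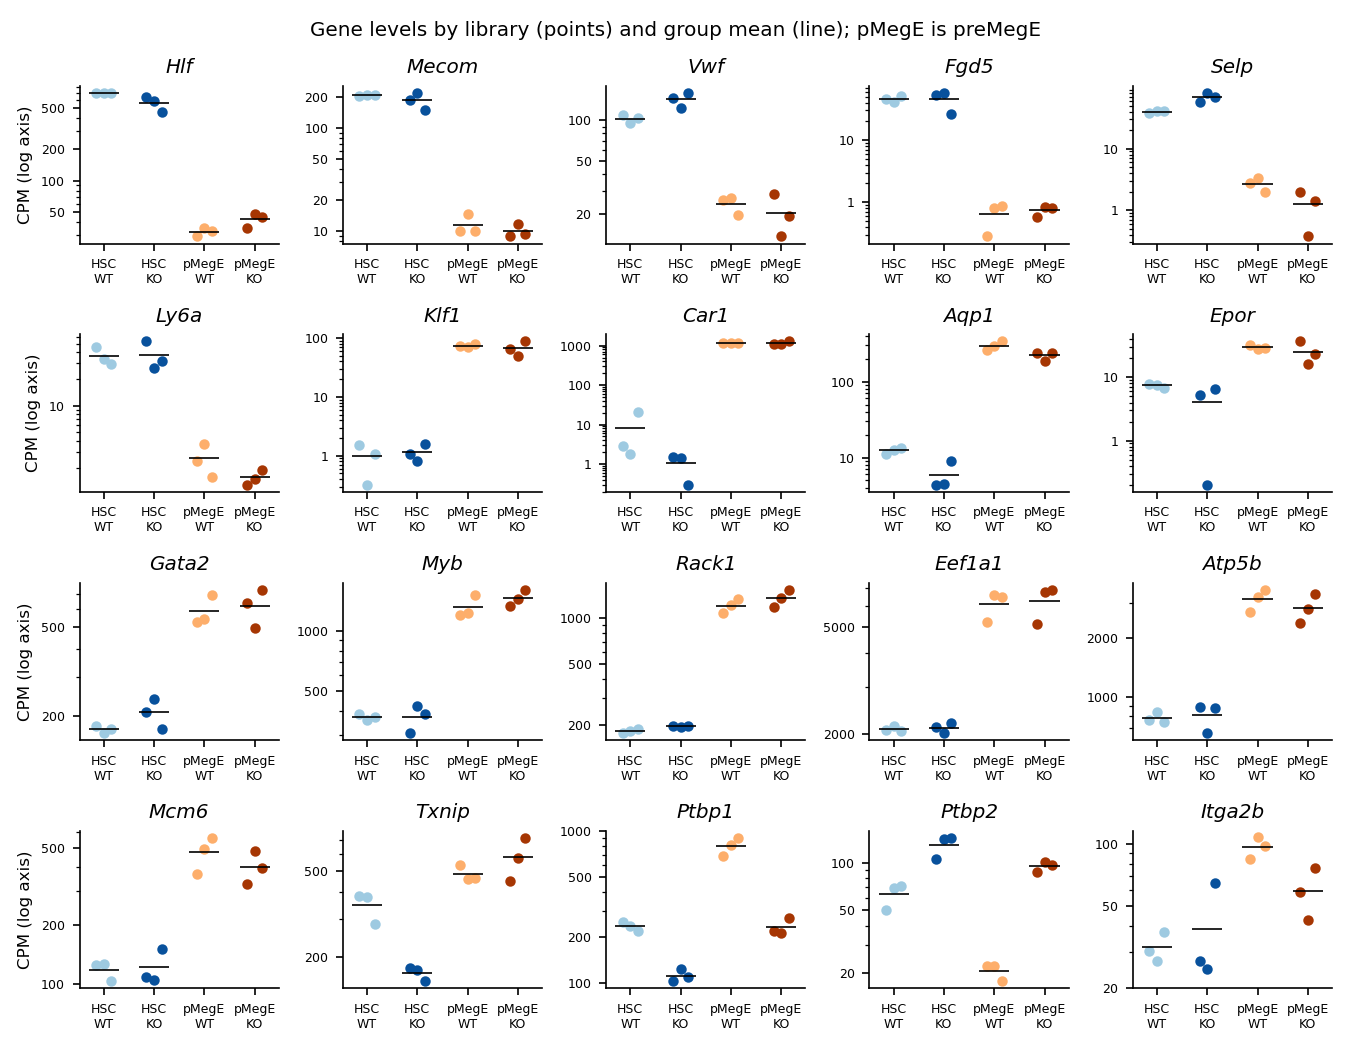
CPM on a log axis for 20 genes in the HSC KO, preMegE KO, HSC WT and preMegE WT libraries, 1 point per library with a line at the group mean. Hlf and Mecom are low and Klf1 and Car1 high in the 3 preMegE KO and the 3 preMegE WT libraries, and Ptbp2 is higher in KO than in WT libraries of the same population.

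Genes of other blood lineages were counted to see which other cells the sorted populations could hold. Over all genes 23.7% rose and 24.6% fell. Of 26 lymphoid genes 6 (23.1%) rose and 7 (26.9%) fell, which is near that background, of 34 granulocyte and monocyte genes 10 rose and 6 fell, and of 14 mast cell and basophil genes 6 rose and 2 fell. Of 20 macrophage genes 3 rose and 6 fell, and of 16 endothelial and stromal genes 3 rose and 5 fell. The count of lymphoid genes that fell was 4 with a replicate block and without preMegE KO replicate 2 or 3. Cpa3, a protease of mast cells, stood at 0.564, 0.903 and 2.05 CPM in HSC KO and 20.05, 41.8 and 38.9 CPM in preMegE KO (4.85 ± 0.50, adjusted p = 2.18e-06), and Ms4a2, a chain of the IgE receptor, changed by 4.98 ± 0.88. The basophil proteases Mcpt8 and Prss34 were at 0 in all 6 KO libraries. Mpo, the myeloperoxidase of granulocyte precursors, stood at 11.4, 2.36 and 7.86 CPM in HSC KO and 54.5, 39.1 and 63.9 CPM in preMegE KO (2.85 ± 0.50). The other granulocyte and monocyte markers were mixed. Ms4a3 (3.38 ± 0.85) and S100a9 (3.52 ± 0.97) rose. Prtn3 fell (-1.79 ± 0.55), from 11.2, 5.72 and 6.01 CPM in HSC KO to 2.18, 1.12 and 3.26 CPM in preMegE KO. Elane (2.11), Ctsg (1.15), Csf1r (-0.64), Lyz2 (-0.22) and S100a8 (2.15) did not pass. Nkg7, a granule protein gene of killer lymphocytes, stood at 4.92, 6.42 and 8.66 CPM in HSC KO and 257, 269.5 and 298 CPM in preMegE KO (5.37 ± 0.55), while Cd79a was at no more than 1.20 CPM, Cd3e at no more than 2.06 CPM and Klrd1 at no more than 0.254 CPM in any KO library. Other markers of B and T cells were not all that low. Cd3d stood at 8.95, 14.3 and 12.5 CPM in HSC KO and fell (-3.10 ± 0.49), and Cd79b rose (1.51 ± 0.58). Ighm reached 29.0 CPM in HSC KO replicate 1 and 32.7 CPM in preMegE KO replicate 2, and did not pass (0.39). Ebf1 (-0.34) and Lck (-1.77) did not pass either. Cdh5 and Col3a1, of endothelium and stroma, were at 0 in all 6 KO libraries, and C1qa, of macrophages, at no more than 0.153 CPM. The rest of these markers were not all absent. Kdr stood at 11.9, 10.4 and 5.36 CPM in HSC KO and 1.93, 4.71 and 3.51 CPM in preMegE KO. Kdr (-1.45 ± 0.43), Lepr (-2.98 ± 0.82) and Col1a1 (-3.27 ± 0.84) fell, and Cxcl12 (-1.89) did not pass. Of the macrophage markers Vcam1 reached 5.201 CPM in HSC KO replicate 1. Vcam1 (-0.93), Adgre1 (0.05), C1qb (-0.19) and C1qc (-0.18) did not pass. Apoe (2.77 ± 0.29) and Cd163 (2.68 ± 0.27), named in the macrophage list, rose. Summed over each list, levels in HSC KO and preMegE KO were 105 to 157 and 333 to 385 CPM for lymphoid genes, 321 to 394 and 354 to 412 CPM for granulocyte and monocyte genes, and 443 to 499 and 719 to 938 CPM for mast cell and basophil genes. The sums were 178 to 294 and 229 to 368 CPM for macrophage genes and 185 to 220 and 316 to 418 CPM for endothelial genes. A sum can rest on few members. Of the 26 lymphoid genes 12 had a positive and 14 a negative change (median -0.48), and Nkg7 alone stood at 257 to 298 CPM in preMegE KO. Of the 16 endothelial and stromal genes 7 had a positive and 9 a negative change (median -0.69). The higher sums of these 2 lists were thus not a rise of most members. The part of such cells in the other results was not tested.

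Many genes of cell division rose in the step, where over all genes 23.7% rose and 24.6% fell. Of 56 DNA replication genes 37 rose, with a median of 0.92, and the other 19 did not pass. Of 71 genes of G2 and mitosis 43 rose, with a median of 0.79, and of 35 cyclins, kinases and inhibitors of G1 18 rose and 4 fell. Mcm6, a subunit of the replicative helicase, stood at 109, 106 and 151 CPM in HSC KO and 326, 481 and 394 CPM in preMegE KO (1.72 ± 0.19, adjusted p = 5.01e-06), with no overlap. Pcna, the sliding clamp, changed by 1.02 ± 0.17, Rrm1, of ribonucleotide reductase, by 0.99 ± 0.20, and the maintenance methyltransferase gene Dnmt1 by 0.92 ± 0.16. Cdk6, a kinase of early G1, stood at 1371, 1551 and 2608 CPM in HSC KO and 5536, 5420.0 and 5714 CPM in preMegE KO (1.59 ± 0.18), and Ccnd2 and Myc changed by 0.60 and 1.19. Cdkn1c, the inhibitor p57 that keeps HSC quiescent, fell by 3.76 ± 0.71, and Ccnd1 by 0.92 ± 0.29. Mki67 stood at 422, 451 and 1033 CPM in HSC KO and 1089.9, 994 and 664 CPM in preMegE KO and did not pass (0.53, adjusted p = 0.116). HSC KO replicate 3 lay among the preMegE KO libraries, and without that library Mki67 was called (1.09, adjusted p = 1.59e-04). Of 54 replication-dependent histone genes 19 rose and 3 fell. Several of these counts depend on 1 library or on the scaling. The 43 higher genes of G2 and mitosis were 28 without preMegE KO replicate 1, 26 without it and HSC KO replicate 2, 15 with upper-quartile factors and 11 without factors, the 19 histone genes were 12 without preMegE KO replicate 1, and the 37 replication genes were 23 without factors.

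Ribosomal protein genes rose almost without exception, against 23.7% of all genes. All 33 small-subunit ribosomal protein genes tested rose, with a median of 1.64, and so did 41 of 44 large-subunit genes, with a median of 1.46. Rpl8 stood at 101, 81.2 and 90.2 CPM in HSC KO and 479.8, 499 and 618 CPM in preMegE KO (2.55 ± 0.14, adjusted p = 7.26e-09), without overlap. The smallest rise of a small-subunit gene was that of Rps21 (0.55 ± 0.19), and Rpl31 (-0.01), Rpl12 (0.35) and Rpl38 (0.40) were the large-subunit genes that did not pass. Rack1, a protein bound to the small subunit, stood at 198, 194 and 198 CPM in HSC KO and 1179.9, 1344 and 1534 CPM in preMegE KO, with the 3 HSC KO libraries close together and the change 2.78 ± 0.13, adjusted p = 1.20e-09. Ribosomal protein genes share sequence with many processed pseudogenes, so reads can be split between them.

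Most factors that build or serve the ribosome rose, against 23.7% of all genes. Of 70 ribosome biogenesis factors 58 rose and 1 fell (median 1.01), of 46 translation factors 42 rose (median 1.29), of 20 cytosolic tRNA synthetases 16 rose (median 0.92), and of 78 mitochondrial ribosomal proteins 46 rose and 1 fell (median 0.86). Npm1, a chaperone of ribosome assembly, changed by 1.14 ± 0.16, and Ncl, nucleolin, by 0.54 ± 0.17, with overlapping libraries and a call lost without preMegE KO replicate 2 or 3. Nop56, of the snoRNP that methylates rRNA, stood at 233, 192 and 289.6 CPM in HSC KO and 195, 248 and 242 CPM in preMegE KO and did not pass (-0.06). Eef2, the elongation factor that moves the ribosome, stood at 961, 691 and 846 CPM in HSC KO and 2512, 2087 and 3073 CPM in preMegE KO (1.62 ± 0.16, adjusted p = 1.14e-06), and Eef1a1 changed by 1.56 ± 0.13 and the poly(A)-binding protein gene Pabpc1 by 1.28 ± 0.15. Without scaling factors the higher counts were 33 of the biogenesis factors, 8 of the synthetases and 17 of the mitochondrial ribosomal proteins.

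Most nuclear genes of the respiratory chain rose, where over all genes 23.7% rose and 24.6% fell. Of 74 nuclear genes of oxidative phosphorylation 59 rose, with a median of 1.21. Of 27 glycolysis genes 11 (40.7%) rose and 8 (29.6%) fell, and the share that fell is not far from that of all genes. Atp5b, the catalytic subunit of ATP synthase, stood at 889.7, 657 and 875 CPM in HSC KO and 2369.9, 2785 and 3315 CPM in preMegE KO (1.81 ± 0.15, adjusted p = 2.89e-07), and Sdha, of complex II, changed by 1.29 ± 0.14. In glycolysis Ldha (1.50 ± 0.19) and Gpi1 (1.88 ± 0.14) rose, and the 8 that fell were Eno2, Hk3, Ldhb, Aldoc, Pfkp, Hk2, Slc2a1 and Slc2a3. Of 25 genes of cholesterol and lipid synthesis 13 rose and 1 fell, and the higher count was 7 with length-scaled counts, 5 with upper-quartile factors and 4 without factors. Fasn, the fatty acid synthase gene, changed by 1.14 ± 0.16 and Scd2 by 1.32 ± 0.12, while Scd1, also a desaturase, changed by -3.80 ± 0.71.

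Among stress and immune genes, the interferon and immediate early lists held rises and falls at shares not far from those of all genes (23.7% and 24.6%). Of 35 targets of p53 16 rose and 4 fell (9 rose without factors), among them Zmat3 (2.27 ± 0.20), Ccng1 (1.82 ± 0.21) and Mdm2 (0.60 ± 0.15), whereas Cdkn1a, which encodes p21, did not pass (1.08, adjusted p = 0.0819). Of 49 interferon response genes 8 (16.3%) rose and 14 (28.6%) fell (median -0.05). Of 23 genes of antigen presentation 9 rose and 7 fell, against 23.7% and 24.6% of all genes. Of class I, H2-K1 (1.13 ± 0.13), H2-D1 (1.31 ± 0.16), H2-T23 (1.15 ± 0.21) and the shared light chain gene B2m (0.93 ± 0.13) rose, while H2-Q7 (-0.88 ± 0.19, 0.25 with length-scaled counts) and H2-Q4 (-0.56 ± 0.20) fell. The class II gene H2-Aa stood at 95.9, 57.9 and 49.4 CPM in HSC KO and 9.83, 4.33 and 6.72 CPM in preMegE KO (-3.28 ± 0.43, adjusted p = 2.75e-05), and H2-Eb1 (-2.97 ± 0.73), the chaperone gene Cd74 (-4.09 ± 0.67) and Ciita (-2.53 ± 0.42), the class II transactivator, also fell. H2-DMa, which helps to load class II with peptide, rose (0.91 ± 0.25), and H2-Ab1 (-0.60) did not pass. The list's median of 0.14 became -0.28 without factors and with upper-quartile factors. Of 25 immediate early and heat shock genes 7 (28.0%) rose and 6 (24.0%) fell, and Egr1, an early response gene, stood at 34.95, 29.1 and 25.98 CPM in HSC KO and 32.3, 36.3 and 26.6 CPM in preMegE KO and did not pass (0.08). That list's median of 0.18 became -0.26 and -0.24 under those 2 scalings.

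Most splicing factor genes rose, where over all genes 23.7% rose and 24.6% fell. Of 45 hnRNP and SR genes 30 rose and 3 fell, with a median of 0.75, and 18 rose without factors and with upper-quartile factors. Hnrnpa2b1 stood at 505, 442 and 591 CPM in HSC KO and 1155, 1369 and 1200.0 CPM in preMegE KO (1.28 ± 0.14, adjusted p = 3.50e-06), Pcbp2, another pyrimidine-binding protein gene, at 137, 185 and 179 CPM in HSC KO and 355, 447 and 429 CPM in preMegE KO (1.30 ± 0.15), and Mbnl1 changed by 0.62 ± 0.14. The members that fell were Srsf5, at 499, 559.7 and 445 CPM in HSC KO and 184, 128 and 137 CPM in preMegE KO (-1.74 ± 0.17, adjusted p = 1.54e-06), the tissue-specific regulator Rbfox2, at 30.9, 19.9 and 21.1 CPM in HSC KO and 4.18, 0.822 and 1.83 CPM in preMegE KO (-3.39 ± 0.43, adjusted p = 1.76e-05), and Matr3 (-1.002 ± 0.31). The 3 preMegE KO libraries were below all HSC KO libraries for each of these 3 genes.

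**Figure D3:**
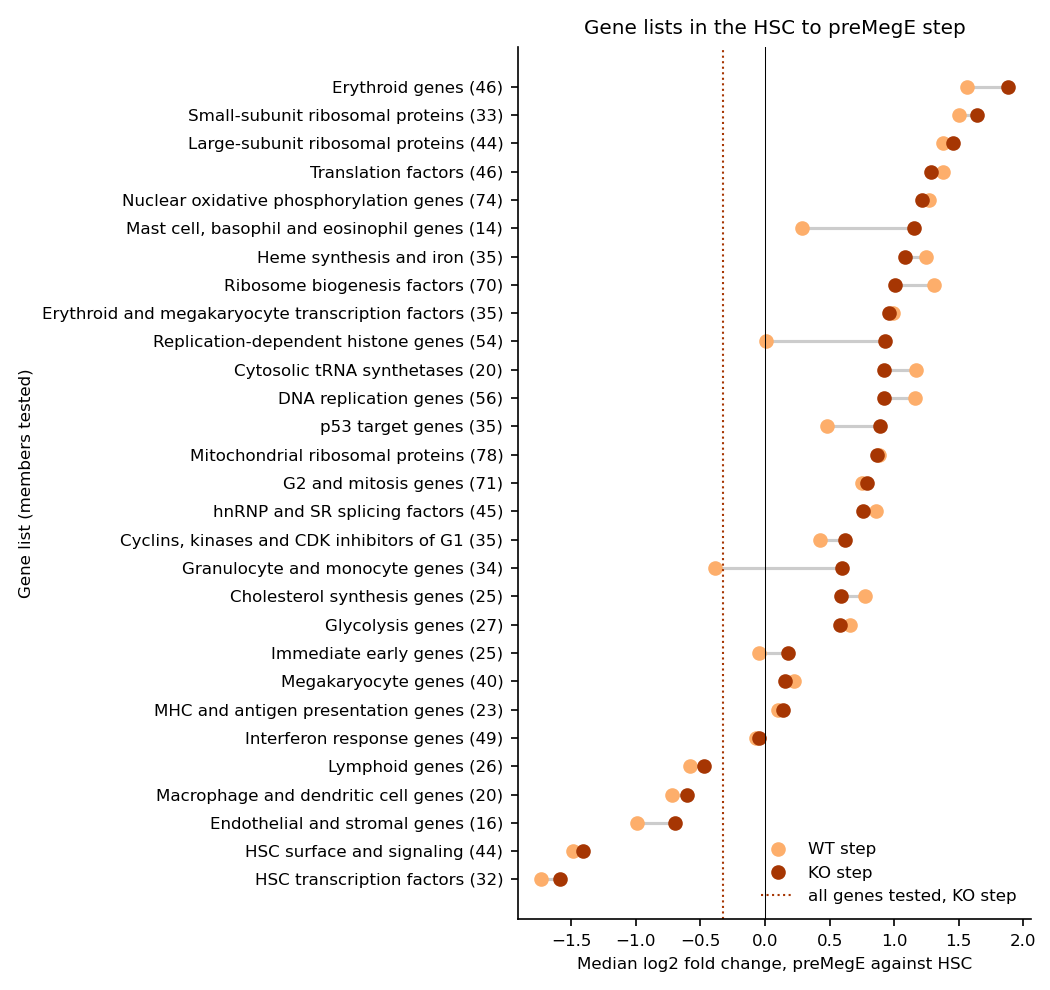
Median log2 change from HSC to preMegE over the tested members of 29 gene lists, with the WT step in light and the KO step in dark orange. The dotted line is the median of all genes in the KO step, -0.33, and both ribosomal protein lists sit above 1 and both stem cell lists below -1 in each genotype.

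Set beside the WT step, the KO step called much the same genes. Both steps were tested in 1 fit over 12 libraries with a shared spread per gene, so their calls are not independent. The shared calls are given for that fit alone. Of the genes that rose in KO cells, 3996 also rose in WT cells, which is 82.5% of the KO calls and 82.4% of the WT calls, and 3597 fell in both, which is 71.4% of KO and 68.8% of WT calls. A further 855 genes rose in the WT step alone, and 806 of them (94.3%) had a positive KO change that did not pass. Of the 1630 that fell in the WT step alone, 1542 (94.6%) had a negative KO change. Among 3267 well-expressed genes called in the WT step, the median of the KO change over the WT change was 0.955, and among 3243 called in the KO step the WT change over the KO change had a median of 0.968. Across 4539 well-expressed genes, which share libraries and depth and are no independent replicates, the 2 changes had a Pearson r of 0.932. Calls in opposite directions were 3 (Zfp354c, Cstad and Gm11282), named after their values were seen, and Zfp354c, a zinc finger gene, changed by 0.66 in KO and -0.66 in WT cells.

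The gene lists were compared in the same way, where of all 20443 genes 3996 rose in both genotypes and 3597 fell in both. The counts called the same way in both genotypes were 24 of 32 stem cell transcription factors, 35 of 44 stem cell surface genes, 23 of 35 red cell and megakaryocyte regulators, 35 of 46 red cell genes and 25 of 35 heme and iron genes. They were 31 of 33 small-subunit and 40 of 44 large-subunit ribosomal protein genes, 59 of 70 biogenesis factors and 51 of 74 respiratory genes. Medians in KO and WT were -1.59 and -1.73 for stem cell factors, 1.88 and 1.56 for red cell genes, 1.64 and 1.50 for small-subunit genes, 1.01 and 1.30 for biogenesis factors and 0.92 and 1.16 for replication genes. Lists with further apart medians were the granulocyte and monocyte genes (0.59 and -0.38), the histone genes (0.93 and 0.01) and the mast cell genes (1.16 and 0.28), and of their members 9, 7 and 1 had a difference of the steps at an unadjusted p below 0.05, with no call by edgeR or DESeq2.

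The difference of the steps, KO change minus WT change, is the only test of genotype here. By edgeR 2 of 20443 genes (0.00978%) were called, both with a smaller KO change, both processed pseudogenes, and 1207 genes (5.90%) had an unadjusted p below 0.05. DESeq2 called 48 (0.24% of 19990), of which 22 had the larger and 26 the smaller change in KO cells, and limma's voom called 0, with or without quality weights. Of the 1121 list genes 99 (8.83%) had an unadjusted p below 0.05 by edgeR, and DESeq2 called 5, which were Txnip, Cd48, Cldn13, Selp and Ptbp2. For well-expressed genes the median SE of the difference was 0.26 and the median half-width of its 95% interval 0.55, and 0.969% differed by at least 1. In simulated counts with 100 genes changed by each fold, a 2-fold difference was recovered for 5% of changed genes and a 4-fold difference for 39%. In that setting smaller differences of single genes were mostly not detectable with 3 libraries a group.

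The named differences are these. Txnip had the lowest p among list genes: it rose by 1.79 in KO and 0.48 in WT cells, a difference of 1.31 (95% interval 0.82 to 1.79), with adjusted p = 0.180 by edgeR and 0.00395 by DESeq2. Its HSC WT values were 381, 378 and 285 CPM and its preMegE WT values 534, 459 and 465 CPM, against the KO values given above. Selp fell by 5.72 in KO and by 3.88 in WT cells, a difference of -1.85 (95% interval -2.86 to -0.83), adjusted p = 0.659 by edgeR and 0.0136 by DESeq2. Selp stood at 37.6, 40.8 and 40.8 CPM in HSC WT and 2.76, 3.35 and 1.95 CPM in preMegE WT. Muc13, a mucin gene of the red cell list, rose by 0.72 in KO and 1.44 in WT cells (-0.72 (95% interval -1.07 to -0.38), adjusted p = 0.469). For Klf1 the difference was -0.38 (95% interval -1.46 to 0.71), for Gata2 -0.16 (95% interval -0.64 to 0.32) and for Mecom -0.04 (95% interval -0.59 to 0.50). For Hlf it was 0.71 (95% interval 0.26 to 1.15), unadjusted p = 0.00387, which did not pass over all genes.

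The kinds of transcript changed with the step in KO cells. Retained-intron transcripts took 8.02, 8.74 and 10.6% of autosomal reads (lowest, median and highest) in HSC KO and 2.94, 3.12 and 4.28% in preMegE KO, without overlap. In WT cells the medians were 8.53% and 3.09%. Transcripts marked for nonsense-mediated decay took 4.81 to 5.77% in HSC KO and 3.12 to 4.28% in preMegE KO, and long intergenic non-coding RNA took 3.48 to 5.72% and 1.36 to 2.36%. Protein-coding transcripts took 65.3 to 74.2% in HSC KO and 74.1 to 82.1% in preMegE KO, where only the highest HSC KO library reached the lowest preMegE KO library. Of the genes called higher 96.5% were protein-coding and of those called lower 52.6%, against 68.1% of all tested, and 15.9% of the lower genes were models of the TEC class, which await experimental support, 10.7% long intergenic and 7.86% antisense genes. The share of mitochondrial ribosomal RNA and the number of genes with reads, given above, moved with the same groups, and their part in these shares was not tested.

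**Figure D4:**
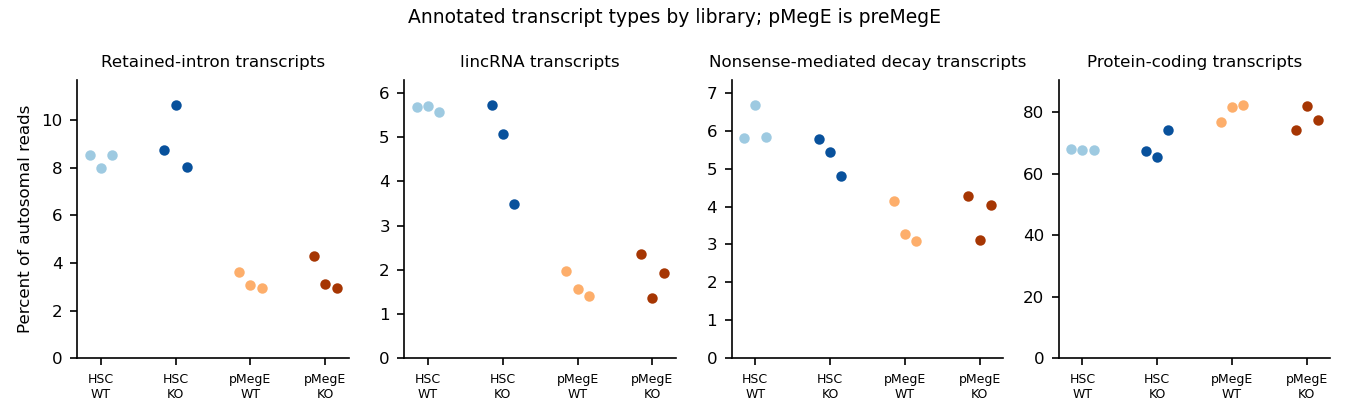
Percent of autosomal reads in retained-intron, long intergenic non-coding, nonsense-mediated decay and protein-coding transcripts, 1 point per library in the 4 groups. Retained-intron shares lie from 7.98 to 10.6% in the 6 HSC libraries and from 2.94 to 4.28% in the 6 preMegE libraries of both genotypes.

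Exon choice was read from transcript TPM as percent spliced in (PSI), the share of the transcripts spanning an exon that include it. Of 7682 cassette exons tested in 3862 genes, 355 (4.62%) were called in the KO step, where limma gave an adjusted p below 0.05 and the PSI moved by 10 points or more. Of these 158 (2.06%) were used more and 197 (2.56%) less in preMegE KO, in 298 genes in all. The WT step called 315, of which 150 (1.95%) were used more and 165 (2.15%) less, and 125 were called the same way in both, which is 35.2% of the KO and 39.7% of the WT calls, while 333 of the 355 had the same sign in WT cells. Each exon took the annotated class of 1 transcript that includes it, the first by identifier. Other transcripts that include the exon can be of another class. The transcript was marked for decay for 35 (17.8%) of the exons used less and 7 (4.43%) of those used more. Over all exons tested that share was 11.8%. A processed transcript, a class without a coding frame, was taken for 30 (15.2%) and 10 (6.33%), against 9.42% of all. The difference between the directions was not tested. The KO count was 107 when each genotype was fitted alone, 60 with a replicate block, and 125 to 416 with 1 library left out (416 without HSC KO replicate 3, 125 without preMegE KO replicate 3).

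The 8 largest called changes, on a mean TPM of 6.47 to 28.2, lay in exons of 6 genes. They were Scin (97.7 points), Spaca6 (94.6 and 91.2), Gm10719 (86.4 and -86.4), Ubash3a (-81.0), Scaf11 (-76.6) and Sphk2 (-76.2). The whole Scin gene had 9, 55 and 12 reads in HSC KO, against 2033, 2122 and 3271 in preMegE KO. Its HSC KO PSI of 0% thus rests on few reads, and the 97.7 points do not establish a switch. The 2 exons of Gm10719 mirror each other in every library and are 1 choice. The sequences of 4 other called exons, picked after their values were seen, are shown in lower case from the reference transcripts (GRCm38).
Rps24, 18 bases (chr14:24494052-24494069, plus strand): aaaTGAaatacctagcag
Epb41, 42 bases (chr4:131963929-131963970, minus strand): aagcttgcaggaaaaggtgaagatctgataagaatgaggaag
Slc25a3, 122 bases (chr10:91121922-91122043, minus strand): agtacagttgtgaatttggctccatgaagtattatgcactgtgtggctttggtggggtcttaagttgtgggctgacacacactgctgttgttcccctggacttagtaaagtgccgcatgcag
Slc25a3, 125 bases (chr10:91122207-91122331, minus strand): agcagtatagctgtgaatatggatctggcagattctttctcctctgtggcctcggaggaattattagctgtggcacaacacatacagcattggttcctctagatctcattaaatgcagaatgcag
The capitals in Rps24 mark the stop codon of the transcript that includes the exon. Rps24 encodes a small-subunit ribosomal protein, and its 18-base exon decides where the protein ends. Its PSI was 29.5, 24.7 and 26.5% in HSC KO and 0.597, 0.773 and 0.488% in preMegE KO (-26.3 points, adjusted p = 5.78e-04), so that all 3 preMegE KO libraries nearly skipped it, and the WT change was -19.4 points. Slc25a3, the phosphate carrier of mitochondria, has neighbouring exons of which a transcript uses 1. The 122-base exon had a PSI of 70.8, 44.3 and 69.6% in HSC KO and 100, 97.6 and 100% in preMegE KO (37.7 points, adjusted p = 0.00206), and the 125-base exon of 26.1, 55.7 and 30.4% in HSC KO and 0, 2.37 and 0% in preMegE KO (-36.6 points, adjusted p = 0.00191). The preMegE KO libraries used the 122-base exon almost alone, whereas HSC KO libraries used both.

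Further exons in genes of blood cells changed in the KO step, and Epb41, Ptprc and Cbfa2t3 were picked after their values were seen. Epb41 encodes protein 4.1, which ties the red cell membrane to spectrin. Its 42-base exon had a PSI of 21.5, 34.6 and 38.6% in HSC KO and 4.696, 4.51 and 0.637% in preMegE KO (-28.3 points, adjusted p = 0.0178), and was not called without preMegE KO replicate 3 (-26.9 points, adjusted p = 0.0626). Ptprc encodes CD45, and its 129-base exon had a PSI of 66.8, 63.6 and 70.99% in HSC KO and 25.99, 30.9 and 28.4% in preMegE KO (-38.7 points, adjusted p = 0.0315). Cbfa2t3 encodes the corepressor ETO2, and its 78-base exon had a PSI of 73.3, 69.2 and 71.5% in HSC KO and 32.2, 32.2 and 33.99% in preMegE KO (-38.5 points, adjusted p = 0.0262). In both genes the 3 libraries of a population lay close together and far from the other population, yet each call was lost when any of the preMegE KO libraries was left out (adjusted p = 0.0596 to 0.0909 by limma). A 274-base exon of the splicing factor gene Rbm39, included in a transcript marked for decay, had a PSI of 23.2, 22.3 and 20.2% in HSC KO and 6.96, 4.34 and 2.97% in preMegE KO (-17.1 points, adjusted p = 0.0314), a call lost without HSC KO replicate 1 or preMegE KO replicate 2 or 3. Mdh2, malate dehydrogenase, included an 84-base exon at 50.1, 44.02 and 56.2% in HSC KO and 95.1, 99.7 and 100% in preMegE KO (48.1 points, adjusted p = 0.00159), and the chromatin protein gene Dek a 189-base exon at 60.8, 32.6 and 70.1% in HSC KO and 99.6, 98.5 and 100% in preMegE KO (44.9 points, adjusted p = 0.00113). Skp1a, of the SCF ubiquitin ligase, included a 144-base exon at 58.7, 56.1 and 69.7% in HSC KO and 98.1, 100 and 99.6% in preMegE KO (37.8 points, adjusted p = 0.00206). The calls of Rps24, Slc25a3, Mdh2, Dek and Skp1a held with any 1 library left out. By limma 8 exons (0.104%) were called in the difference of the steps, 5 (0.0651%) with the higher and 3 (0.0391%) with the lower change in KO cells, and 417 had an unadjusted p below 0.05.

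**Figure D5:**
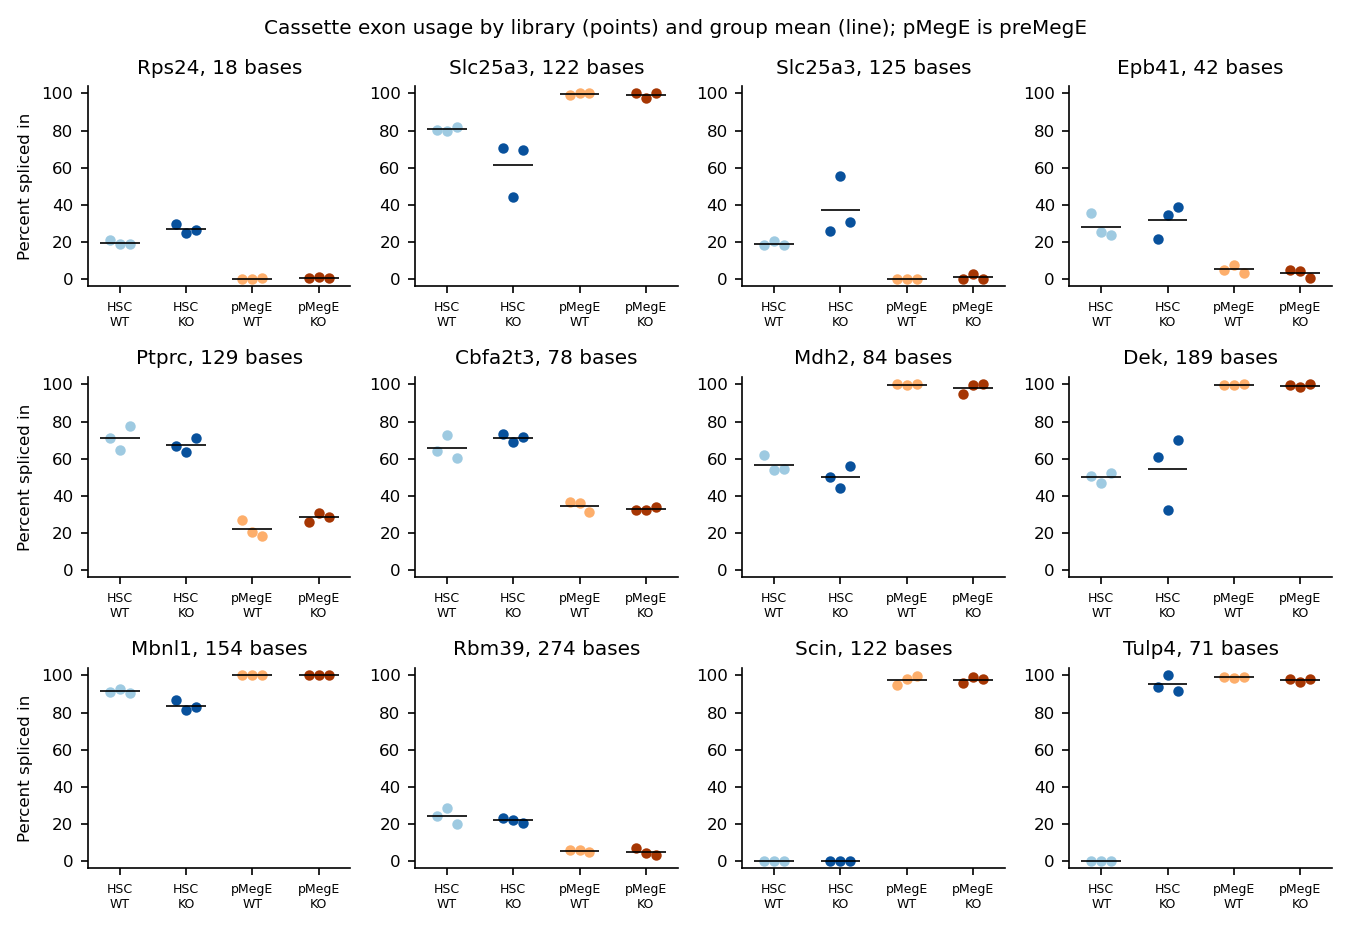
PSI in percent of 12 exons, 1 point per library in the HSC KO, preMegE KO, HSC WT and preMegE WT groups. The Rps24 exon of 18 bases lies near 0 in the 3 preMegE KO libraries and from 24.7 to 29.5% in the 3 HSC KO libraries.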

How the data were processed

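Total RNA of FACS-sorted cells was isolated with the RNeasy micro kit and libraries were made with Ovation kits of NuGEN (RNA-Seq System V2, Ultralow System V2), per the labels' protocols. The deposited values are estimated counts per transcript and TPM, for which the submitters' processing notes name Salmon 0.12.0, mm10 and GRCm38.p6. Here 136176 of 136288 transcripts were matched to GENCODE M21, and the deposited estimated counts were summed per gene and rounded. No source used here states strand, so overlapping and antisense genes are not told apart. Replicates differed by more than sampling noise (chi-square per degree of freedom of 13.6 to 76.9).

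Genes were tested with edgeR 4.0.16 in R 4.3.3 (TMM, filterByExpr, robust quasi-likelihood fit, 4 group means over 12 libraries, 8 residual degrees of freedom). P-values were adjusted by Benjamini-Hochberg over all 21085 genes tested, of which 20443 are autosomal. The 12 libraries held 15956408 to 25097404 estimated reads, and low genes rest on few reads. PSI was computed from the deposited TPM for exons with a mean TPM of at least 5 and a mean PSI of 2 to 98, and tested with limma 3.58.1 on logit values with an offset of 0.01. Counts were simulated for 21085 genes, of which 100 were changed 2-fold and 100 were changed 4-fold. There the KO step test recovered 23% of 2-fold and 65% of 4-fold changes, with 9 false calls. In the data 48.3% of genes were called, so rates from so few changed genes do not measure the power of the KO step test.

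Named genes are the 12 largest rises and 12 largest falls among called, non-overlapping protein-coding genes whose mean log2 CPM was 5 or more, the 4 most abundant members of each of 31 lists, up to 4 more with the smallest adjusted p in the stem cell, red cell and platelet lists, genes called in the difference of the steps, cell type markers, PTB genes and sorting genes. Other members of a list, the exons of genes with a mean TPM of at least 100 and those of Epb41, Ptprc and Cbfa2t3 were named after their values were seen. The comparison, its lists and its tests were chosen with earlier results of these data known. Alternatives were DESeq2 1.42.0, limma's voom, other scalings, no filter, length-scaled counts, each genotype fitted alone, all 18 libraries, a replicate block and leaving out libraries. Promoters came from RefSeq and exon sequences from the reference transcripts.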

Additional observations from a re-analysis of the deposited data

Results flagged for a closer look

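The step from HSC to preMegE differed between genotypes, by the test of the difference itself, in 2 genes and 8 exons. The genes are processed pseudogenes, near copies of other genes, and how Salmon divided reads between such copies, or any difference in strain background, was not tested. Rps23-ps1 (chr3:37714740-37715164) stood at 2.58, 9.34 and 6.11 CPM in HSC KO, 215, 243 and 321 CPM in preMegE KO and 265, 220.3 and 222 CPM in preMegE WT, and had 0 reads in all 3 HSC WT libraries. Its WT step was at least 1527-fold, on a floor of 3 reads per library, against a KO ratio of means of 43.2, and the fitted difference was -9.73 (adjusted p = 0.00484). The call was lost without HSC KO replicate 3 (-9.70, adjusted p = 0.0976) and with voom. Gm10163 (chr9:88390837-88391317) stood at 7.42, 13.4 and 7.31 CPM in HSC KO, 17.3, 16.7 and 35.98 CPM in preMegE KO and 34.5, 23.8 and 9.799 CPM in preMegE WT, and again had 0 reads in HSC WT. Its WT step was at least 147-fold against a KO ratio of 2.49, and the fitted difference was -10.49 (adjusted p = 0.00484). That call was lost with voom too. The KO rise of Gm10163 was not called without factors or with upper-quartile factors, nor without HSC KO replicate 1 or 3 or preMegE KO replicate 3. Fitted differences against a group at 0 depend on the prior count and are no measure of size.

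The 8 exons rest on the division of reads between transcripts of a gene by Salmon. For 2 of them HSC WT stood apart from the other 3 groups. The 71-base exon of Tulp4 had a PSI of 0% in each library of HSC WT, 93.97, 100 and 91.6% in HSC KO, 99.2, 98.7 and 99.4% in preMegE WT and 98.3, 96.5 and 97.8% in preMegE KO (-96.7 points, adjusted p = 0.00425), and the 87-base exon of Rec114 of 42.4, 38.3 and 60.1% in HSC WT, 100% in each library of HSC KO, 100% in each library of preMegE WT and 100% in each library of preMegE KO (-53.1 points, adjusted p = 0.00634). In Ctsa, the protective protein of lysosomes, HSC KO stood apart: the 43-base exon had a PSI of 37.5, 41.7 and 23.98% in HSC WT, 0% in each library of HSC KO, 44.5, 44.8 and 38.6% in preMegE WT and 32.8, 37.4 and 52.1% in preMegE KO (32.5 points, adjusted p = 0.0312). In 2 exons preMegE WT stood apart. These are the 58-base exon of Arih1, a ubiquitin ligase, with a PSI of 100% in each library of HSC WT, 100% in each library of HSC KO, 84.2, 78.8 and 85.01% in preMegE WT and 100% in each library of preMegE KO (17.4 points, adjusted p = 0.0408), and the 142-base exon of Tceanc2, with 100% in each library of HSC WT, 100% in each library of HSC KO, 54.5, 81.4 and 60.05% in preMegE WT and 100% in each library of preMegE KO (34.7 points, adjusted p = 0.0312). The 146-base exon of Gdap2 had a PSI of 75.1, 69.7 and 83.9% in HSC WT, 0% in each library of HSC KO, 29.5, 20.98 and 27.5% in preMegE WT and 80.1, 37.01 and 18.7% in preMegE KO (95.5 points, adjusted p = 0.0312), the 277-base exon of Srgap3 of 33.2, 8.48 and 22.5% in HSC WT, 0% in each library of HSC KO, 0, 1.59 and 2.73% in preMegE WT and 9.24, 10.5 and 10.5% in preMegE KO (30.1 points, adjusted p = 0.0312) and the 133-base exon of Amn1 of 65.6, 84.8 and 40.7% in HSC WT, 100% in each library of HSC KO, 68.2, 77.1 and 73.1% in preMegE WT and 28.4, 50.1 and 63.5% in preMegE KO (-61.7 points, adjusted p = 0.0483). The count of such exons was 8 here, 3 with a mean TPM of at least 10, 2 with an offset of 0.05 and 0 with a replicate block, and 2 to 30 with 1 library left out.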

How the results depend on the processing

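The split of calls in the KO step moved most with the scaling. Calls higher in the KO step were 4846 with TMM, 2523 without factors and 2833 with upper-quartile factors, and in the WT step 4852, 3172 and 2768. The main fit estimates the spread of a gene over all 12 libraries. With each genotype fitted alone, the KO step had 7870 calls (3796 higher and 4074 lower) against 9883. The WT step then had 11137 against 10081. With 1 library left out, higher calls ran from 3848 to 4869 and lower calls from 3436 to 4758 in the KO step, and lower calls from 3352 to 4432 in the WT step, with 3352 without preMegE WT replicate 3. The difference of the steps had 2 calls by edgeR, 48 by DESeq2, 7 with all 18 libraries, 5 without both HSC KO replicate 2 and preMegE KO replicate 1 (an alternative chosen after seeing the data), 0 by voom, 0 by voom with quality weights, and 1 to 5 with 1 library left out (5 without HSC KO replicate 2, 1 without HSC KO replicate 3). Exons called in the KO step were 355, 107 with each genotype fitted alone, 60 with the replicate block and 125 to 416 with 1 library left out (186, 135 and 125 without preMegE KO replicates 1, 2 and 3). Replicate numbers did not pair the samples, since deviations of same-numbered KO libraries correlated at -0.022, -0.0061 and 0.0103. The replicate block gave 8898 calls in the KO step against 9883 without it, and 2 in the difference, and HSC KO and preMegE KO libraries did not each correlate best with their own number. Single genes reversed as follows: Adgrg1 changed by -0.0884 with length-scaled counts, -0.0502 without factors and -0.0415 with upper-quartile factors, and with length-scaled counts Kit changed by -0.28, Eng by -0.0681 and H2-Q7 by 0.25. Of 134 named genes called in the KO step, 103 were called under every alternative run and 31 were lost under at least 1. Ccnd2, Gapdh, Hnrnpu, Mbnl1, Mdm2 and Top2a were lost without factors or with upper-quartile factors, under which the median of all genes fell. The spread between HSC KO libraries limits small changes, and low genes such as the globins rest on few reads. The cause of each move was not tested.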

Other observations

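A set of processed ribosomal pseudogenes had no read in any of the 6 HSC libraries and stood among the well-expressed genes of preMegE in both genotypes. Rpl10a-ps1 stood at 648 ± 196 CPM (SD, 3 libraries) in preMegE KO and at a mean of 548 CPM in preMegE WT. Rps6-ps4 stood at 354 ± 115 CPM (SD, 3 libraries) in preMegE KO and 349.9 CPM in preMegE WT, and Rpl31-ps8 at 175 ± 25.5 CPM (SD, 3 libraries) and 140.0 CPM. On a floor of 3 reads per library the KO steps were at least 4609-fold, 2517-fold and 1242-fold. Rpl10-ps3 went the other way, with 109 ± 14.5 CPM in HSC KO, 149 CPM in HSC WT and 0 reads in preMegE of both genotypes, so that HSC KO was at least 573-fold higher. These genes were picked after their values were seen. They are near copies of expressed ribosomal protein genes, so the levels and folds depend on how Salmon divided reads between copies, which was not tested, nor was any difference in strain background.

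Some protein-coding genes also had 0 reads in 1 of the KO populations. Pdzph1 had none in HSC KO and HSC WT, and stood at 45.03 ± 7.85 CPM (SD, 3 libraries) in preMegE KO and 47.2 CPM in preMegE WT. Plxdc1 had none in HSC KO and stood at 6.11 ± 0.612 CPM (SD, 3 libraries) in preMegE KO. B3galt1, a galactosyltransferase gene, had none in preMegE KO and stood at 9.94 ± 2.91 CPM (SD, 3 libraries) in HSC KO, and Card10 stood at 3.64 ± 1.29 CPM there with none in preMegE KO.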
